A study of Rattus norvegicus with 12 samples.

Results

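Messenger RNA of 7 genes that mark microglia or encode complement C1q was followed in rat hippocampus. They are Aif1 (ENSRNOG00000000853), Cx3cr1 (ENSRNOG00000018509), Itgam (ENSRNOG00000019728) and Csf1r (ENSRNOG00000018414), and the 3 C1q chains C1qa (ENSRNOG00000012807), C1qb (ENSRNOG00000012749) and C1qc (ENSRNOG00000012804). The members were taken by these rat Ensembl IDs, 7 of 28959 rows of the deposited table. The rule names genes and uses no measured value, but the genes were chosen with earlier results of these data known. All 7 were above 0 in each of 12 libraries. Microglia are the resident macrophages of the brain. They depend on the receptor Csf1r, which binds the growth factors CSF1 and IL-34, and they sense neurons through Cx3cr1, the receptor of the chemokine fractalkine. C1q opens the classical complement pathway. Its A, B and C chains come from separate genes and assemble together, and in mouse brain microglia are its main source. Complement fragments laid down after C1q are bound by complement receptor CR3, whose alpha chain, CD11b, is encoded by Itgam. In mice this route takes part in the removal of synapses. Aif1 encodes IBA1, a calcium- and actin-binding protein whose antibody is the usual stain for microglia.

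The rats were Sprague Dawley, given as 6 to 7 weeks old, and formed 4 groups of 3 libraries. Ctrl-Sal rats received saline and no stress. All others were exposed for 5 weeks to CUMS, chronic unpredictable mild stress, a series of changing mild stressors used as a rodent model of depression. In the last week, for 7 days, they were given saline (CUMS-Sal), the serotonin reuptake inhibitor fluoxetine (CUMS-Flx) or albiflorin, a monoterpene glycoside of peony root (CUMS-Alb). Albiflorin was dosed at 7 mg/kg/d. For fluoxetine the sources differ, with 10 mg/kg/d on the samples and 7 mg/kg/d in the design text. The drugs were given only to stressed rats, so that there is no group with a drug and no stress. Whether each library is a different rat is not stated, and the p-values therefore reflect a spread between libraries that may be technical. In whole hippocampus, fewer microglia and less RNA per microglial cell cannot be told apart.

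C1qb, C1qc and C1qa lie next to each other in that order on chromosome 5 in the RefSeq annotation of build GRCr8. Sequence upstream of the gene start was found for 5 of the 7 genes, and it was not found for Aif1 and C1qc. The 250 bases before the start are shown for C1qa and C1qb, the C1q chains that have an entry, and for Csf1r, the gene whose variation C1qc followed most closely. Capitals mark GAGGAA or GGGGAA and their reverse complements TTCCTC or TTCCCC. These hexamers hold the GGAA core bound by ETS factors such as PU.1, which is needed for the macrophage lineage. Each sequence is from RefSeq, build GRCr8, read 5′ to 3′ on the strand of the gene. C1qa is at chr5:154419934-154420183, C1qb at chr5:154407828-154408077, both on the minus strand, and Csf1r at chr18:56834129-56834378 on the plus strand.
C1qa: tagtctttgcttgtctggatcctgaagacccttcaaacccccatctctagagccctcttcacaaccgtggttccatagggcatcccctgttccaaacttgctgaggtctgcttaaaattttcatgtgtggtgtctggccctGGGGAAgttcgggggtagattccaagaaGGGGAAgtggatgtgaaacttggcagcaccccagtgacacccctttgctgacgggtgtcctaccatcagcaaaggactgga
C1qb: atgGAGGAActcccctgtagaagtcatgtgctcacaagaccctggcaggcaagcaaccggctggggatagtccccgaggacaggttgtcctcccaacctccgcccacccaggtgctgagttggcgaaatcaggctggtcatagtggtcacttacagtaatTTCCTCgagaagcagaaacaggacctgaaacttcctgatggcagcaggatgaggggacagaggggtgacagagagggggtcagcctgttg
Csf1r: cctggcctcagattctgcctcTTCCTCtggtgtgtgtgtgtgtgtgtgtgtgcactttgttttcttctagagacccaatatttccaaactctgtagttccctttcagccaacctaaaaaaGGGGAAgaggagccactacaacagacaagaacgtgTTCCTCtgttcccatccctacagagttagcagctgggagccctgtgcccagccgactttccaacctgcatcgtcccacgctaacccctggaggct
With the last base before the start counted as -1, the matches begin at -109 and -81 for C1qa, at -247 and -90 for C1qb, and at -229, -130 and -95 for Csf1r. Itgam had matches at -151 and -39. Cx3cr1 had 0 of these hexamers in this window, though its sequence does hold the GGAA core. The hexamers were chosen after the sequences were seen. Of 33469 upstream sequences of the same length, 38.4% hold at least 1 of these hexamers, so a match is common and describes only the letters.

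The libraries held 14735953 to 18109623 reads, recovered from the values as described under the processing. A member rested on 92 to 1507 reads in a library, which gives a counting error of 10.4% to 2.58%. Values are FPKM, reads scaled by gene length and library total, and log2 changes are of FPKM + 0.5. The limma test was run over the 15253 rows that averaged 0.5 FPKM or more, a filter that all 7 members passed, and a gene is called where its p, adjusted over these rows by Benjamini-Hochberg, is under 0.05. Ctrl-Sal replicate 2 stood apart, with a median correlation of 0.977 with the other libraries, against 0.989 to 0.992 for the rest. It also had the highest share of reads in the 9 most abundant rows, 22.0%. That share was 17.4% to 22.0% in Ctrl-Sal, 14.7% to 15.0% in CUMS-Sal, 15.3% to 18.8% in CUMS-Flx and 14.6% to 15.6% in CUMS-Alb.

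Csf1r was the most abundant of the 7 by FPKM and Itgam the least. Over 12 libraries the mean FPKM was 29.9 for Csf1r, 21.0 for C1qb, 14.2 for C1qc, 14.0 for Cx3cr1, 12.3 for C1qa, 8.63 for Aif1 and 2.91 for Itgam. Csf1r stood above C1qb in 12 of 12 libraries, C1qb above C1qc in 12, and Aif1 above Itgam in 12. The middle of the order was less fixed: C1qc exceeded Cx3cr1 in 9 libraries, Cx3cr1 exceeded C1qa in 8, and C1qa exceeded Aif1 in 10. Among all tested rows Csf1r ranked at the 81.6th percentile of mean FPKM, Aif1 at the 51.5th and Itgam at the 28.7th.

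**Figure D1:**
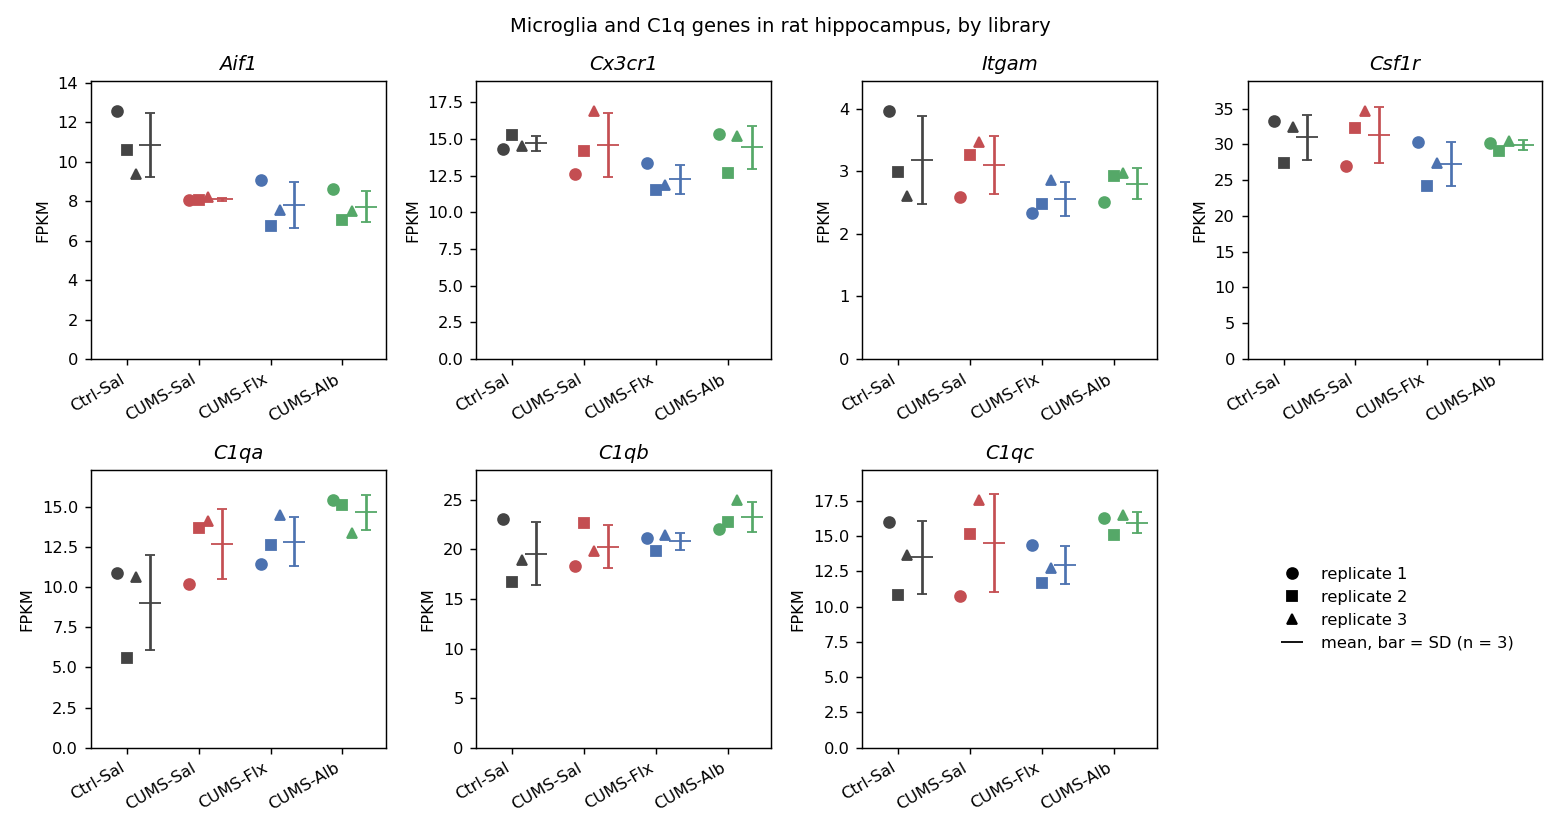
FPKM of the 7 genes in each of the 12 libraries, by group; symbols are replicates and the mark to the right is the mean with SD (n = 3). Aif1 is lower in all 9 stressed libraries than in any Ctrl-Sal library, though the nearest values, 9.10 and 9.36 FPKM, differ by less than counting error. Csf1r overlaps between all groups, and C1qa is lowest in Ctrl-Sal replicate 2, at 5.61 FPKM.

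The first comparison, CUMS-Sal with Ctrl-Sal, asks which of these genes differ after stress. No member passed the test, and the 2 genes with the smallest p lay in opposite directions, Aif1 lower and C1qa higher in CUMS-Sal. Aif1 stood at 12.6, 10.6 and 9.36 FPKM in Ctrl-Sal replicates 1, 2 and 3 and at 8.06, 8.06 and 8.20 in CUMS-Sal. The groups do not overlap, and the mean level in CUMS-Sal was 0.747 times that in Ctrl-Sal (8.11 ± 0.0802 against 10.9 ± 1.63 FPKM, SD, n = 3). Its log2 change was -0.39 (SE 0.12, limma adjusted p = 0.0585, lower in 3 of 3 libraries). The variation of Aif1 within CUMS-Sal, 0.989% of the mean, was below its counting error of 9.27%, so that SD understates the uncertainty of the level.

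C1qa was at 10.9, 5.61 and 10.6 FPKM in Ctrl-Sal and at 10.2, 13.7 and 14.1 in CUMS-Sal. Here the groups overlap, since CUMS-Sal replicate 1 is below Ctrl-Sal replicates 1 and 3. The log2 change was 0.51 (SE 0.21, limma adjusted p = 0.12). It rested in large part on Ctrl-Sal replicate 2, and without that library it was 0.21 (limma adjusted p = 0.363).

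The other chains of C1q and the surface receptors stood at similar means in CUMS-Sal and Ctrl-Sal. C1qb was at 23.1, 16.8 and 18.9 FPKM in Ctrl-Sal and at 18.3, 22.6 and 19.8 in CUMS-Sal (log2 change 0.06, 95% interval -0.18 to 0.29). C1qc was at 16.0, 10.8 and 13.7 FPKM in Ctrl-Sal and at 10.7, 15.1 and 17.6 in CUMS-Sal (log2 change 0.09, 95% interval -0.27 to 0.44). For C1qb both the highest and the lowest library of the 6 are Ctrl-Sal, and for C1qc both are CUMS-Sal, so that neither chain separates the groups.

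Csf1r was at 33.2, 27.4 and 32.4 FPKM in Ctrl-Sal and at 27.0, 32.3 and 34.7 in CUMS-Sal, a log2 change of 0.01 with a 95% interval of -0.22 to 0.24. Cx3cr1 was at 14.3, 15.3 and 14.5 FPKM in Ctrl-Sal and at 12.6, 14.2 and 16.9 in CUMS-Sal (log2 change -0.02, 95% interval -0.25 to 0.21). Itgam was at 3.96, 2.98 and 2.61 FPKM and at 2.58, 3.26 and 3.46 (log2 change -0.02, 95% interval -0.34 to 0.29). All 3 receptors overlap between the groups. The intervals allow a change of up to 0.25 in size for Csf1r and Cx3cr1 and 0.34 for Itgam. Over all tested rows the median log2 change in this comparison was 0.10, and it was 0.01 over the 7 members. The signs of the small changes of Csf1r, C1qb and C1qc turned to negative where libraries were centred on that shift, while Aif1 stayed negative and C1qa positive.

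Of the 7 genes, limma called 0 in CUMS-Sal against Ctrl-Sal, where 9.19% of all tested rows were called, 8.05% higher and 1.14% lower. At an unadjusted p under 0.05 there were 2 members, Aif1 and C1qa (30% of rows), and limma-voom on recovered reads called 0 (12.3% of rows). The libraries did not overlap in 1 member, Aif1, which was lower, as in 5.85% of all rows. Aif1 has a gene model of 927 bp, and among rows of up to 1600 bp 2.59% were called lower, against 0.157% of those over 2800 bp. C1qa, C1qb and C1qc, at 1048 to 1090 bp, are in the same length class. In that class the median log2 change was 0.07, and 6.1% of rows were called higher. With the trend over gene length removed from each library, Aif1 had a log2 change of -0.44 (limma adjusted p = 0.0554). Over 18 alternatives at the same threshold its log2 change ran from -0.54 to -0.28 and its adjusted p from 0.024 to 0.15, with a call in 5 of them. Among these is the fit without Ctrl-Sal replicate 3, the lowest Ctrl-Sal library for Aif1 (log2 change -0.49, limma adjusted p = 0.024). That fit called 17.3% of all rows. Without Ctrl-Sal replicate 1, the highest Ctrl-Sal library for Aif1, the log2 change was -0.28 (limma adjusted p = 0.15).

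Fluoxetine was compared with saline in stressed rats, CUMS-Flx with CUMS-Sal. The 4 myeloid genes had lower means in CUMS-Flx, none past the test. Cx3cr1 was at 13.3, 11.5 and 11.9 FPKM in CUMS-Flx, a log2 difference of -0.24 from CUMS-Sal (SE 0.11, limma adjusted p = 0.493). Csf1r was at 30.4, 24.1 and 27.4 FPKM (log2 difference -0.19, 95% interval -0.42 to 0.04). Each of these overlaps with CUMS-Sal through CUMS-Sal replicate 1, which was the lowest library of its group for both genes.

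Itgam was at 2.33, 2.48 and 2.86 FPKM in CUMS-Flx (log2 difference -0.23, 95% interval -0.55 to 0.09). Aif1, at 9.10, 6.77 and 7.57 FPKM, differed from CUMS-Sal by -0.06 (95% interval -0.32 to 0.20). Neither gene separated the groups. The C1q chains lay on either side of 0, with C1qa at 11.4, 12.6 and 14.5 FPKM (log2 difference 0.03, 95% interval -0.42 to 0.47). C1qb was at 21.1, 19.9 and 21.5 FPKM (0.04, 95% interval -0.19 to 0.28) and C1qc at 14.4, 11.7 and 12.8 (-0.13, 95% interval -0.49 to 0.22). By limma 0 of the 7 were called, and 0% of all tested rows. Cx3cr1 alone had an unadjusted p under 0.05 (9.98% of rows), limma-voom called 0 (0% of rows), and no member separated the groups (17.9% of rows did). The median log2 difference was -0.13 over the members and -0.05 over all rows.

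Albiflorin was likewise compared with saline in stressed rats, CUMS-Alb with CUMS-Sal. The C1q chains had higher means in CUMS-Alb and the 4 myeloid genes lower ones, and no member passed the test. C1qa was at 15.5, 15.1 and 13.4 FPKM in CUMS-Alb (log2 difference 0.21, SE 0.21). C1qb was at 22.1, 22.7 and 25.0 FPKM (0.20, SE 0.11) and C1qc at 16.3, 15.1 and 16.5 (0.16, SE 0.16), each at a limma adjusted p of 0.9996. The CUMS-Alb libraries were close to each other for C1qc, and CUMS-Sal spread from 10.7 to 17.6 FPKM around them.

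Csf1r was at 30.1, 29.1 and 30.5 FPKM in CUMS-Alb (log2 difference -0.06, 95% interval -0.29 to 0.17) and Cx3cr1 at 15.4, 12.7 and 15.2 (-0.01, 95% interval -0.24 to 0.22). Itgam was at 2.51, 2.92 and 2.96 FPKM (-0.12, 95% interval -0.44 to 0.20) and Aif1 at 8.60, 7.06 and 7.51 (-0.07, 95% interval -0.33 to 0.19). All of these values overlap with CUMS-Sal. Limma called 0 of the 7 members, and 0% of all rows. At an unadjusted p under 0.05 there were 0 members (3.66% of rows), limma-voom called 0 (0% of rows), and no member separated the groups (11.3% of rows did). The median log2 difference was -0.01 over the members and also -0.01 over all rows.

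The drugs were set against each other in CUMS-Alb against CUMS-Flx. Here 6 of the 7 genes had higher means in CUMS-Alb, and none was called. C1qb and C1qc did not overlap between the groups, with all CUMS-Alb libraries above all CUMS-Flx libraries, as in 10.6% of all rows. The log2 difference was 0.16 for C1qb (SE 0.11, limma adjusted p = 0.955) and 0.30 for C1qc (SE 0.16, limma adjusted p = 0.955). For Cx3cr1 it was 0.23 (95% interval -0.01 to 0.46), and for Aif1 -0.01 (95% interval -0.27 to 0.25). Limma and limma-voom called 0 members, against 0.00656% of rows called by limma and 0.00638% by limma-voom, and 0 members had an unadjusted p under 0.05 (4.98% of rows). The median log2 difference was 0.16 over the members and 0.04 over all rows.

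**Figure D2:**
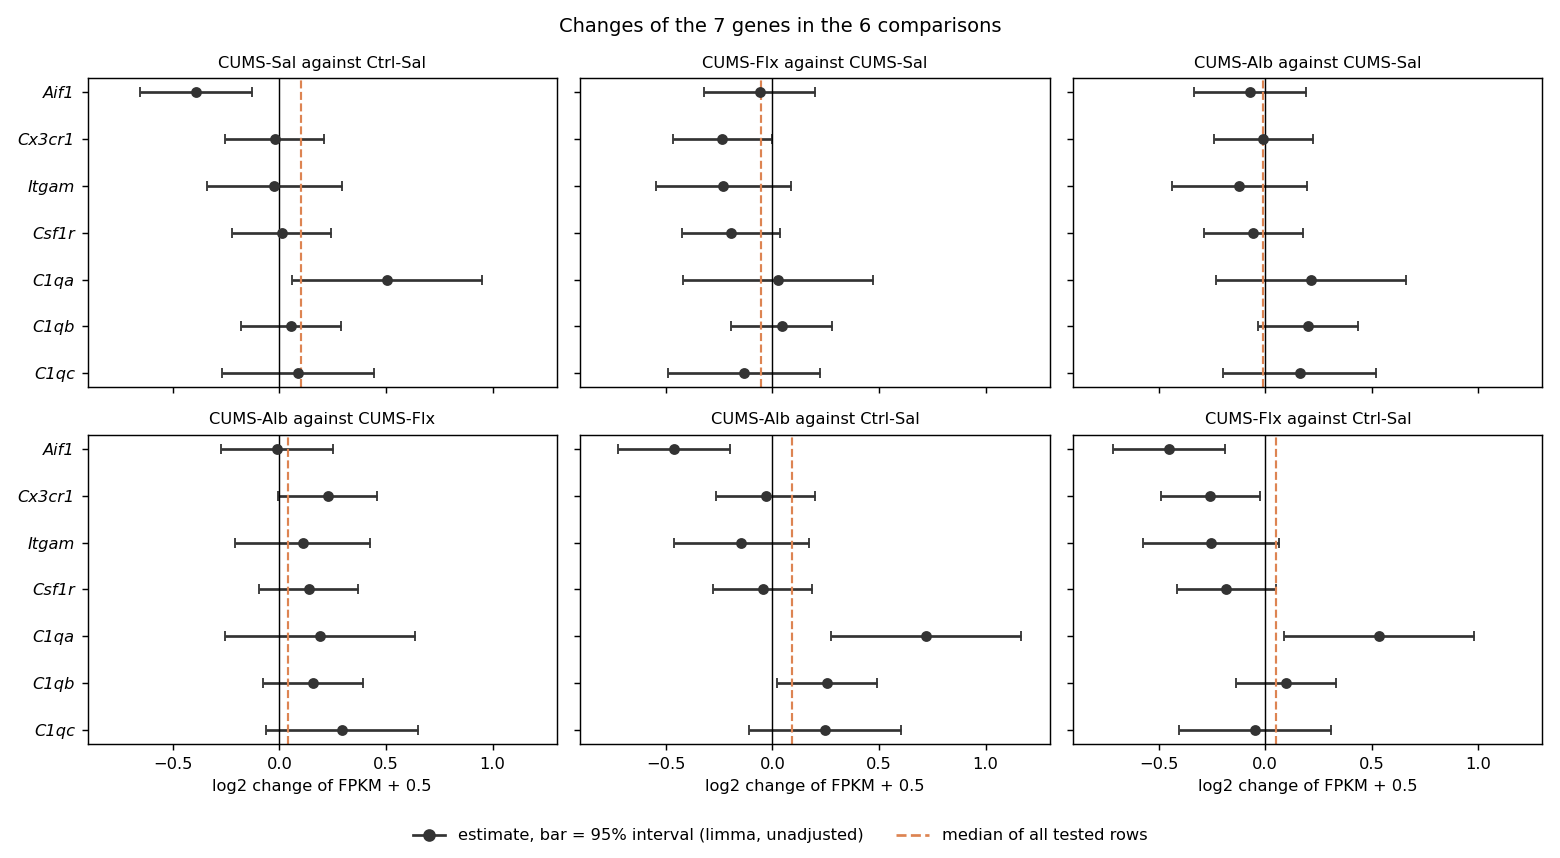
Log2 change of FPKM + 0.5 of each gene in the 6 comparisons, with 95% intervals from the limma fit (not adjusted for the number of genes) and, as a dashed line, the median of all tested rows. Against Ctrl-Sal, Aif1 lies at -0.39 to -0.46 and C1qa at 0.51 to 0.72, with the other genes nearer to 0.

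Stressed rats given a drug were also compared with unstressed rats. These comparisons share the Ctrl-Sal libraries with the first one, so their values are given side by side and are not independent of it. Aif1 was again the lowest of the 7 relative to Ctrl-Sal, at a log2 change of -0.46 in CUMS-Alb (SE 0.12, limma adjusted p = 0.053) and -0.45 in CUMS-Flx (SE 0.12, limma adjusted p = 0.127). Its mean was 0.712 and 0.72 times that of Ctrl-Sal. C1qa was the highest, at 0.72 in CUMS-Alb (SE 0.21, limma adjusted p = 0.0608) and 0.53 in CUMS-Flx (SE 0.21, limma adjusted p = 0.218). In either drug group Aif1 lay wholly below Ctrl-Sal and C1qa wholly above it. In CUMS-Flx both separations are narrowest at replicate 1, at 9.10 against 9.36 FPKM for Aif1 and 11.4 against 10.9 for C1qa. Each of these gaps is smaller than counting error.

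Without Ctrl-Sal replicate 2 the C1qa changes were 0.43 in CUMS-Alb (limma adjusted p = 0.126) and 0.24 in CUMS-Flx (0.542). The Aif1 changes were then -0.47 (0.109) and -0.46 (0.232). The size of the C1qa change thus fell by more than 1.5 times without that library, and that of Aif1 did not. Without Ctrl-Sal replicate 1, the highest Ctrl-Sal library for Aif1, the Aif1 change shrank to -0.35 in CUMS-Alb and -0.34 in CUMS-Flx. Without Ctrl-Sal replicate 3 limma called Aif1 lower in CUMS-Alb (log2 change -0.56, adjusted p = 0.0195) and in CUMS-Flx (-0.55, adjusted p = 0.0397), and C1qa higher in CUMS-Alb (0.86, adjusted p = 0.0258). More of all rows were called without that library too, 15.4% in CUMS-Alb and 3.57% in CUMS-Flx. The share of reads in the 9 most abundant rows, given above, moved with the same groups, and its part in these results was not tested.

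The remaining genes were closer to Ctrl-Sal. In CUMS-Alb the log2 change was 0.25 for C1qb (95% interval 0.02 to 0.49), 0.25 for C1qc (-0.11 to 0.60), -0.03 for Cx3cr1 (-0.26 to 0.20), -0.05 for Csf1r (-0.28 to 0.18) and -0.15 for Itgam (-0.46 to 0.17). In CUMS-Flx the receptors stood lower, at -0.26 for Cx3cr1 (95% interval -0.49 to -0.03), -0.25 for Itgam (-0.57 to 0.06) and -0.18 for Csf1r (-0.41 to 0.05). C1qb was at 0.10 (-0.14 to 0.33) and C1qc at -0.05 (-0.40 to 0.31). Cx3cr1 in CUMS-Flx, at 11.5 to 13.3 FPKM, lay wholly below the 14.3 to 15.3 FPKM of Ctrl-Sal, at a limma adjusted p of 0.244. Against Ctrl-Sal, the median log2 change over all rows was 0.09 in CUMS-Alb and 0.05 in CUMS-Flx. Over the members it was -0.03 and -0.18. In CUMS-Alb 75.6% of rows had a lower log2 change than C1qb, so its interval above 0 does not set it apart from most rows.

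In CUMS-Alb against Ctrl-Sal limma called 0 of the 7 members and 2.5% of all rows (2.18% higher and 0.321% lower), and 3 members, Aif1, C1qa and C1qb, had an unadjusted p under 0.05 (27.4% of rows). Limma-voom on recovered reads called 2 of them, Aif1 (adjusted p = 0.0488) and C1qa (adjusted p = 0.0382), and 8.54% of all rows. The groups did not overlap for Aif1, which was lower (6.37% of rows), and C1qa, which was higher (24.6% of rows). In CUMS-Flx against Ctrl-Sal limma called 0 members and 0.0524% of all rows (0.0328% higher and 0.0197% lower), 3 members, Aif1, Cx3cr1 and C1qa, had an unadjusted p under 0.05 (17.5% of rows), and limma-voom called 0 (0.319% of rows). Aif1 and Cx3cr1 were non-overlapping and lower (5.75% of rows), and C1qa was so and higher (11.9% of rows). Aif1 was the 1 member with all 9 stressed libraries below all Ctrl-Sal libraries, as were 1.43% of all tested rows. The nearest Aif1 values, 9.36 FPKM in Ctrl-Sal replicate 3 and 9.10 in CUMS-Flx replicate 1, differ by less than their counting errors. Those errors are 8.45% and 8.30%. Of the 9 stressed libraries 8 exceeded every Ctrl-Sal library for C1qa, the exception being CUMS-Sal replicate 1. The share of all tested rows with such a pattern was not counted, so whether these 8 libraries set C1qa apart from other rows cannot be told.

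Ratios between genes within a library do not depend on a scaling factor shared by its genes, though they can keep a gene-length shift. They are given as descriptions with no test, since they were chosen after the values were seen. The ratio of C1qa to C1qc was 0.68, 0.517 and 0.78 in Ctrl-Sal. In CUMS-Sal it was 0.949, 0.905 and 0.804, in CUMS-Flx 0.796, 1.08 and 1.13, and in CUMS-Alb 0.949, 1.003 and 0.815. All 9 stressed libraries thus exceeded all 3 Ctrl-Sal libraries, and the nearest values, 0.796 in CUMS-Flx replicate 1 and 0.78 in Ctrl-Sal replicate 3, differ by less than counting error.

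C1qb to C1qc showed no such order, at 1.38 to 1.55 in Ctrl-Sal and 1.13 to 1.71 over all libraries. As a share of the summed FPKM of the 3 chains, C1qa held 21.1% ± 3.93 in Ctrl-Sal, 26.7% ± 0.752 in CUMS-Sal, 27.6% ± 2.81 in CUMS-Flx and 27.2% ± 2.44 in CUMS-Alb (SD, n = 3). Of the 9 stressed libraries 7 exceeded the highest Ctrl-Sal share, 24.7%. C1qb held the largest share in every library, from 38.4% to 50.5%.

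Relative to Csf1r, Aif1 was lower in most stressed libraries. The Aif1 to Csf1r ratio was 0.379, 0.387 and 0.289 in Ctrl-Sal and 0.236 to 0.3 in the 9 stressed libraries. Of these 7 lay below every Ctrl-Sal library, and Ctrl-Sal replicate 3 fell within the stressed range. The ratio of Cx3cr1 to Csf1r, at 0.43 to 0.558 in Ctrl-Sal, ran from 0.434 to 0.509 in the stressed libraries, all within the Ctrl-Sal range. The summed C1q FPKM per Csf1r FPKM was 1.21 to 1.503 in Ctrl-Sal, 1.46 to 1.60 in CUMS-Sal, 1.54 to 1.83 in CUMS-Flx and 1.79 to 1.82 in CUMS-Alb. On that measure CUMS-Flx and CUMS-Alb each lay wholly above Ctrl-Sal, and 7 of 9 stressed libraries exceeded every Ctrl-Sal library. CUMS-Alb also lay wholly above CUMS-Sal, and it overlapped with CUMS-Flx. Csf1r, at 2822 bp, is in a longer length class than the C1q chains. The share of other ratios that separate these groups was not computed.

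**Figure D3:**
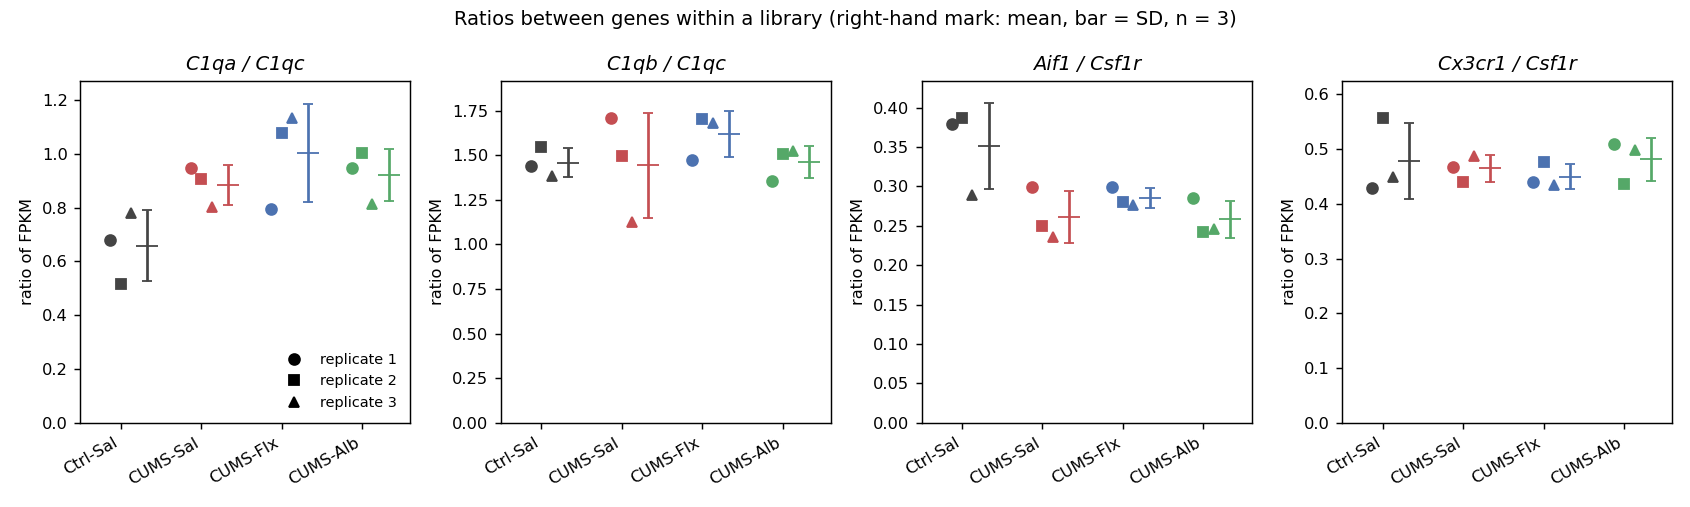
Ratios of FPKM between 2 genes of the same library, by group; symbols are replicates and the mark to the right is the mean with SD (n = 3). C1qa relative to C1qc is 0.517 to 0.78 in Ctrl-Sal and 0.796 or more in the stressed libraries, Aif1 relative to Csf1r is 0.3 or less in the stressed libraries, and the ratios C1qb / C1qc and Cx3cr1 / Csf1r overlap between groups.

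The members also varied between libraries of the same group. In CUMS-Sal replicate 1 all 7 lay below their group mean, by a mean of 0.20 log2 units, while the median of all rows was at 0.01 in that library. In CUMS-Sal replicate 3 6 of the 7 lay above, by a mean of 0.14 over the 7. In CUMS-Flx replicate 2 all 7 were again below, by a mean of 0.10. After subtraction of group means, all 21 pairs of members had positive correlations over the 12 libraries, with a median r of 0.46, while the median r of a member with all tested rows was -0.06 to 0.16. The sign was not firm for every pair: without the 2 libraries farthest from the median of the first gene, r was negative in 5 of the 21, from -0.006 for Aif1 with C1qb to -0.407 for Cx3cr1 with C1qa.

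Csf1r and C1qc followed each other most closely. Their log2 deviations from the group means correlated at r = 0.943 (Spearman rho 0.958, n = 12; exact two-sided permutation within groups, p = 0.000772 for each, the smallest that 1296 arrangements give; adjusted over 21 pairs 0.0162). Without the 2 libraries farthest from the median in Csf1r, r was 0.886. Over all 12 libraries no other tested row correlated more strongly with either gene. With each library left out in turn r ran from 0.914 to 0.976. C1qc was highest and lowest in the same libraries of a group as Csf1r in all 4 groups.

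No other pair passed at an adjusted p under 0.05. Cx3cr1 with Csf1r had r = 0.611 (rho 0.629, exact permutation p = 0.0895 and 0.0741, adjusted 0.274 and 0.259) and 0.311 without the 2 farthest libraries. C1qa with C1qc had r = 0.703 (rho 0.552, exact permutation p = 0.0833 and 0.142, adjusted 0.274 and 0.32) and 0.312 without them. Aif1 with C1qa was at r = 0.008, and -0.155 without them (rho -0.03, exact permutation p = 0.985 and 0.962, adjusted 0.985 and 1). The pairs share libraries, and depth and composition of a library touch all of its genes.

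**Figure D4:**
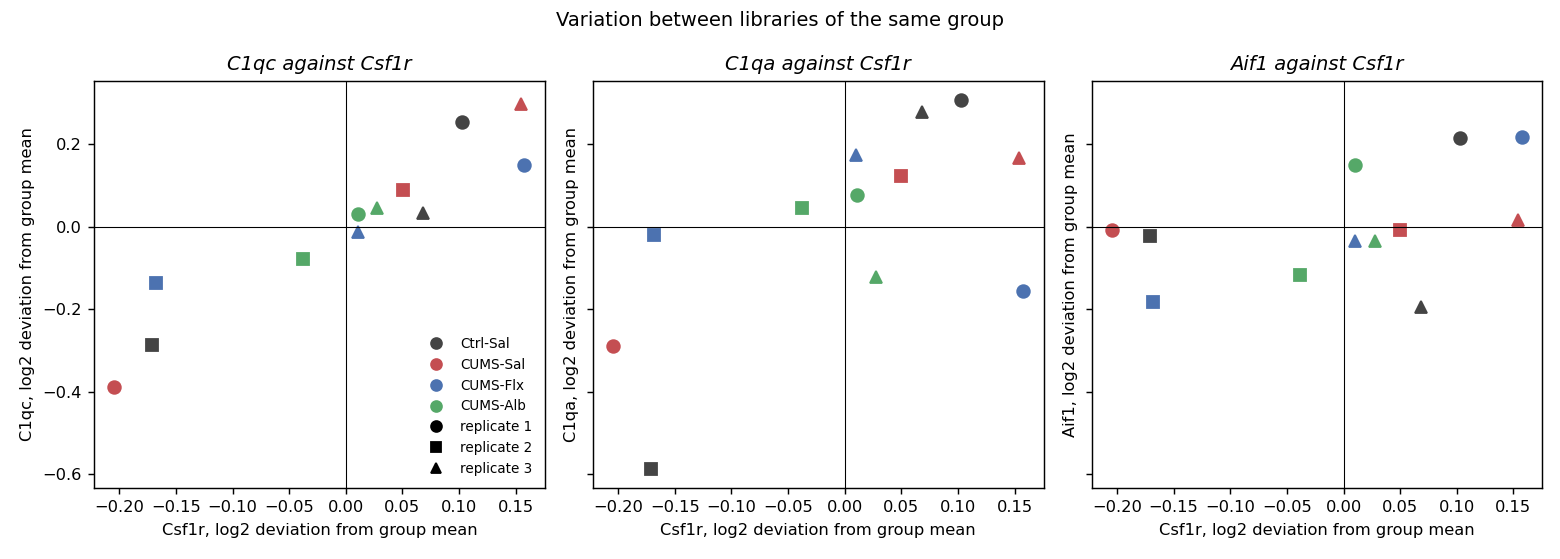
Log2 deviation of C1qc, C1qa and Aif1 from the mean of their group, against that of Csf1r, for the 12 libraries; colours are groups and symbols replicates. C1qc rises with Csf1r over the 12 libraries (r = 0.943), C1qa has a low outlying point in Ctrl-Sal replicate 2, at -0.59, and Aif1 varies little with Csf1r in CUMS-Sal.

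Among the 13591 rows that averaged 1 FPKM or more, the rows most like the members were sought by the mean, over the 7 members, of the Pearson r over the 12 libraries, here without subtraction of group means, so that differences between groups enter. ENSRNOG00000027552 came first, with a mean r of 0.585 and an r of 0.876 with C1qc and 0.789 with Csf1r. It stood at 3.83 ± 1.15 FPKM in Ctrl-Sal, 4.19 ± 0.84 in CUMS-Sal, 3.40 ± 0.532 in CUMS-Flx and 4.45 ± 0.982 in CUMS-Alb (SD, n = 3). ENSRNOG00000016294 was next, with a mean r of 0.573 and an r of 0.913 with Csf1r. The lowest r of the first row was 0.187, with Aif1, and that of the second was 0.282, with C1qa. The sources used here do not pair these IDs with gene names. On the same basis the members had mean r with each other of 0.098 for Aif1 and 0.136 for C1qa, and of 0.309 to 0.534 for the other 5. The ranking of rows depended on Ctrl-Sal replicate 2, without which many of the highest rows changed.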

How the data were processed

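RNA of rat hippocampus was sequenced in 12 libraries, grouped by their titles into 4 groups of 3. TopHat2 and build rn6 were used, per the submitters' processing notes; the counter, the annotation release and the strand setting were not given in the sources used here, so reads of overlapping genes cannot be told apart. The authors deposited 1 table of 28959 rows, read as FPKM from its values because the header names no unit. For 22737 rows above 0, whole lengths and reads were recovered that give all values within 0.0001 of a read (100%), apart from a relative rounding allowance. Tested on simulated data, this returned the totals of 12 of 12 libraries.

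The 15253 rows that averaged 0.5 FPKM or more were tested on log2(FPKM + 0.5), which understates changes of low genes, by limma 3.58.1 with trend and robust settings in R 4.3.3. All 12 libraries entered, with 1 coefficient per group and 6 contrasts. The branch of the design for counts was not needed. In a simulation of CUMS-Sal against Ctrl-Sal over 15253 rows, 200 of them changed, 54% of 1.5-fold and 82% of 2-fold changes were recovered, and 15 of 181 calls were false. Every simulated row had the same spread beyond counting, with no shift by library composition or gene length. Members varied within a group by up to 32.9% of the mean (C1qa in Ctrl-Sal), so these rates need not hold for them. Intervals and counting errors cover no other source. Members and lists were chosen with earlier results of these data known. All 7 members are named, as well as the first 2 rows by likeness. The other listed symbols, 130 of microglia, complement and other cell types, were paired with 0 rows by the reference, so those genes were not analysed here. The hexamers marked in the upstream sequences were chosen after the sequences were seen. Plots were made in Python 3.11.15 with matplotlib 3.10.9.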

Additional observations from a re-analysis of the deposited data

How the results depend on the processing

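No member was called by the main limma fit in any of the 6 comparisons. In CUMS-Sal against Ctrl-Sal 1 member, Aif1, was called by quantile normalization, with library medians set equal, with library deviations set to 0, at a minimum mean of 5 FPKM and at an adjusted p under 0.1. In that order, those fits called 529, 954 and 743 of 15253 rows, 1577 of 9272 rows and 3173 of 15253 rows. Leaving out single libraries gave 0 to 1 there and in CUMS-Flx against Ctrl-Sal, and 0 to 2 in CUMS-Alb against Ctrl-Sal, with all of these calls made without Ctrl-Sal replicate 3. In CUMS-Alb against Ctrl-Sal 1 member (Aif1) was called with library medians set equal, and 2 (Aif1 and C1qa) at a minimum of 5 FPKM, by limma-voom and at an adjusted p under 0.1. The rows called in these fits were, in order, 157 of 15253, 996 of 9272, 1339 of 15678 and 2373 of 15253. The minimum of 5 FPKM leaves Itgam untested. The 3 comparisons among stressed groups had 0 member calls under every alternative run. The replicate number gave no pairing (same-numbered libraries correlated at -0.159 to 0.127 in their deviations), and with it as a replicate block 0 members were called in each of the 6 comparisons, with adjusted p = 0.0517 for Aif1 in CUMS-Sal.

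Of 792 alternative values of single members, 731 kept their sign and side of the threshold, 16 became calls and 45 changed sign; for these signs the cause was not tested. In CUMS-Sal against Ctrl-Sal, quantile normalization, equal medians and deviations set to 0 gave -0.071, -0.14 and -0.093 for Csf1r, -0.056, -0.096 and -0.048 for C1qb, and -0.039, -0.064 and -0.016 for C1qc. Removal of the length trend, chosen after seeing the data, gave -0.12 for Csf1r and -0.0090 for C1qb. In CUMS-Flx against CUMS-Sal, Aif1 was at 0.012 by quantile normalization and 0.0082 with equal medians. In CUMS-Alb against CUMS-Sal, Cx3cr1 was at 0.0030, 0.0070 and 0.00054 under the 3 scalings. Without single libraries, CUMS-Sal against Ctrl-Sal ran from -0.13 to 0.073 for Cx3cr1, -0.14 to 0.12 for Itgam, -0.075 to 0.11 for Csf1r, -0.047 to 0.18 for C1qb and -0.062 to 0.28 for C1qc. CUMS-Flx against CUMS-Sal ran from -0.17 to 0.032 for Aif1, -0.12 to 0.11 for C1qa, -0.024 to 0.12 for C1qb and -0.33 to 0.015 for C1qc. CUMS-Alb against CUMS-Sal ran from -0.10 to 0.099 for Cx3cr1, -0.16 to 0.021 for Csf1r and -0.034 to 0.31 for C1qc, and CUMS-Alb against CUMS-Flx from -0.10 to 0.099 for Aif1. Against Ctrl-Sal, CUMS-Alb ran from -0.078 to 0.054 for Cx3cr1, -0.26 to 0.0014 for Itgam and -0.13 to 0.0052 for Csf1r, and CUMS-Flx from -0.0046 to 0.22 for C1qb and -0.19 to 0.080 for C1qc. Of the 20 rows most like the members, 9 remained without Ctrl-Sal replicate 2.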
